A study of Mus musculus with 39 samples.

Results

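The Hedgehog pathway genes studied here were Shh, Ptch1, Boc, Cdon, Gas1, Smo, Sufu, Gli1, Gli2 and Gli3, and the regions were the sites near them at which NOTCH or RBPJ was found by targeted DamID (TaDa) in the embryonic mouse cortex. A region was counted for a gene when the nearest start site of any protein-coding gene on mm10 belonged to that gene. By this rule the 10 genes were nearest to 82 of the 20809 consensus peaks on the 21 nuclear chromosomes, or 0.394%. None of the 82 was equally near to another gene, and none overlapped another protein-coding gene.

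TaDa uses a bacterial enzyme, Dam, that marks GATC sequences with methyl groups. Fused to a DNA-bound protein it marks the GATC sites around that protein, and fragments cut at the marked sites are then sequenced. Wild-type MF1 embryos were electroporated in utero at E13.5 and the cortex was harvested at E14.5. In radial glial cells (RGCs), the stem cells of the cortex, the fusions were driven by the Hes5 promoter, and RBPJ was profiled in 3 samples and Notch in 4. In intermediate progenitors (IPCs), the neuron-producing daughters of RGCs, they were driven by the Tα1 promoter, with 3 samples of RBPJ and 4 of Notch. RBPJ is the DNA-binding partner of the Notch intracellular domain, and the fused protein was human RBPJ1. The Notch fusion was mouse NICD in all 4 IPC samples, and in RGCs it was NICD in 2 samples and NdECD, which lacks the extracellular domain, in the other 2. All fusions came from plasmids, so that the lists describe proteins supplied to the cells and not the cells' own. The controls were Dam-only samples, 5 in RGCs and 4 in IPCs. The labels tie 4 of those in each cell type to the ratio tracks of both proteins in that cell type. Which Dam-only samples entered each peak call is not given in the sources used here, and the RBPJ and Notch lists of a cell type are treated as sharing controls.

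The authors called peaks for each fusion sample against each Dam-only sample and kept, as 1 list per condition (RGC RBPJ, RGC Notch, IPC RBPJ and IPC Notch), those found in every such pair. They then merged overlapping peaks of the lists into consensus peaks and gave each a k-means cluster number from 1 to 8. The lists hold no height and no value of a single sample. Depth, the spread between replicates and cell type markers can therefore not be read from them, no difference between conditions can be tested, and every count below is a description. Shares carry Wilson 95% intervals for the counting error of the peaks alone.

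Hedgehog signalling starts when a secreted ligand such as Shh binds Ptch1, a receptor that otherwise holds the membrane protein Smo inactive. Boc, Cdon and Gas1 are co-receptors that help the ligand bind. Active Smo releases the zinc finger factors Gli1, Gli2 and Gli3 from Sufu, with Gli1 and Gli2 acting mainly as activators and Gli3 mainly as a repressor, and in the cortex Gli3 is known for its part in dorsal identity and in the upkeep of RGCs.

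The sequences under the peaks show the word TTCCCA, the core of known RBPJ sites, in different arrangements. It was searched on both strands of the GRCm38 sequence, so that it can also appear as TGGGAA, and is in capitals below. For each of 8 peaks that lie at a start site or were called in several lists, 1 window of 120 bases is shown on the forward strand. It holds the most words among the windows tried. These were placed with a word near the middle or near the left end, or against an edge of the searched bases, so a window with more words can be missed. Where all lists called shared bases, only these bases were searched, and sequence annotated as UTR was left out. Of all 120-base windows laid end to end under the 20809 consensus peaks, 12.6% hold the word. The windows were picked for holding it, and a match is not a binding site.
Ptch1, chr13:63548972-63549091: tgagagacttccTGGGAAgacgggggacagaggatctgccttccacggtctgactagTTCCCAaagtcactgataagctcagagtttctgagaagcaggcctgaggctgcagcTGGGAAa
Boc, chr16:44578756-44578875: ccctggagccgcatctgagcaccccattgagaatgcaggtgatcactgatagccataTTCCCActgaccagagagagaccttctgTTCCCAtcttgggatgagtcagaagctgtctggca
Cdon, chr9:35423646-35423765: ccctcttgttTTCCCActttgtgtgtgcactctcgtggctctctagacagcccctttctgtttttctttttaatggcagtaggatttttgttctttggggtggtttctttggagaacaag
Sufu, chr19:46397379-46397498: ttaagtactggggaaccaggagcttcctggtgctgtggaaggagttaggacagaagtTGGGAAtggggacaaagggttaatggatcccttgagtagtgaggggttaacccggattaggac
Gli1, chr10:127339205-127339324: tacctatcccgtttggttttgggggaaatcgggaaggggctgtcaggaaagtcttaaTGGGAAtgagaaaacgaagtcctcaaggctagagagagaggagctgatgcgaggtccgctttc
Gli2, chr1:119050908-119051027: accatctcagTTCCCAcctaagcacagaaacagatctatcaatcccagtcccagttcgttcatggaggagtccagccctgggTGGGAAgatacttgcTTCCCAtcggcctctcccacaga
Gli3, chr13:15461135-15461254: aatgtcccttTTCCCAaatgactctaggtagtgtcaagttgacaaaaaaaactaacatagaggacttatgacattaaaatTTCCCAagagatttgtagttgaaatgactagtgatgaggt
Gli3, chr13:15714581-15714700: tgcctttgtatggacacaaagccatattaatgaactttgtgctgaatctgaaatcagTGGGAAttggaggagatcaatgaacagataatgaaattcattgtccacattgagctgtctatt
The Ptch1 window lies in intron 2 and holds 3 words, in bases shared by RBPJ peaks of both cell types. The Boc window lies upstream of the gene, in bases shared by the RGC RBPJ, IPC RBPJ and IPC Notch peaks. The Cdon and Gli1 windows lie in bases shared by RBPJ peaks of both cell types, and the Sufu window lies in an RGC RBPJ peak. The Gli2 window also holds 3 words, in intron 1, and is covered by the RGC RBPJ and RGC Notch peaks. The first Gli3 window lies upstream of the 5′ end of the gene, over the exon of a noncoding RNA gene on the opposite strand, and only the RGC Notch peak covers it. The second lies near the 3′ end, in bases shared by all 4 lists.

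All 10 genes had an RGC RBPJ peak, 8 an IPC RBPJ peak, 6 an IPC Notch peak and 5 an RGC Notch peak. Of all 21938 protein-coding genes, 39.7% were nearest to some consensus peak, 31.7% to an RGC RBPJ peak, 16.4% to an IPC RBPJ peak, 6.98% to an IPC Notch peak and 11.7% to an RGC Notch peak. The peaks were spread very unevenly over the pathway. Shh, Smo and Gli1 had 1 peak each and Sufu had 3, whereas Ptch1 had 8, Boc 10, Cdon 11, Gli2 12, Gas1 14 and Gli3 21. The Notch peaks in RGCs lay at the co-receptors and at Gli2 and Gli3 and were missing at the ligand, the receptor Ptch1, Smo, Sufu and Gli1. These 5 genes had only 1 to 8 peaks each, and RGC Notch was called at 17.7% of all consensus peaks. With so few peaks, the missing calls cannot be read as a trait of the genes.

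**Figure D1:**
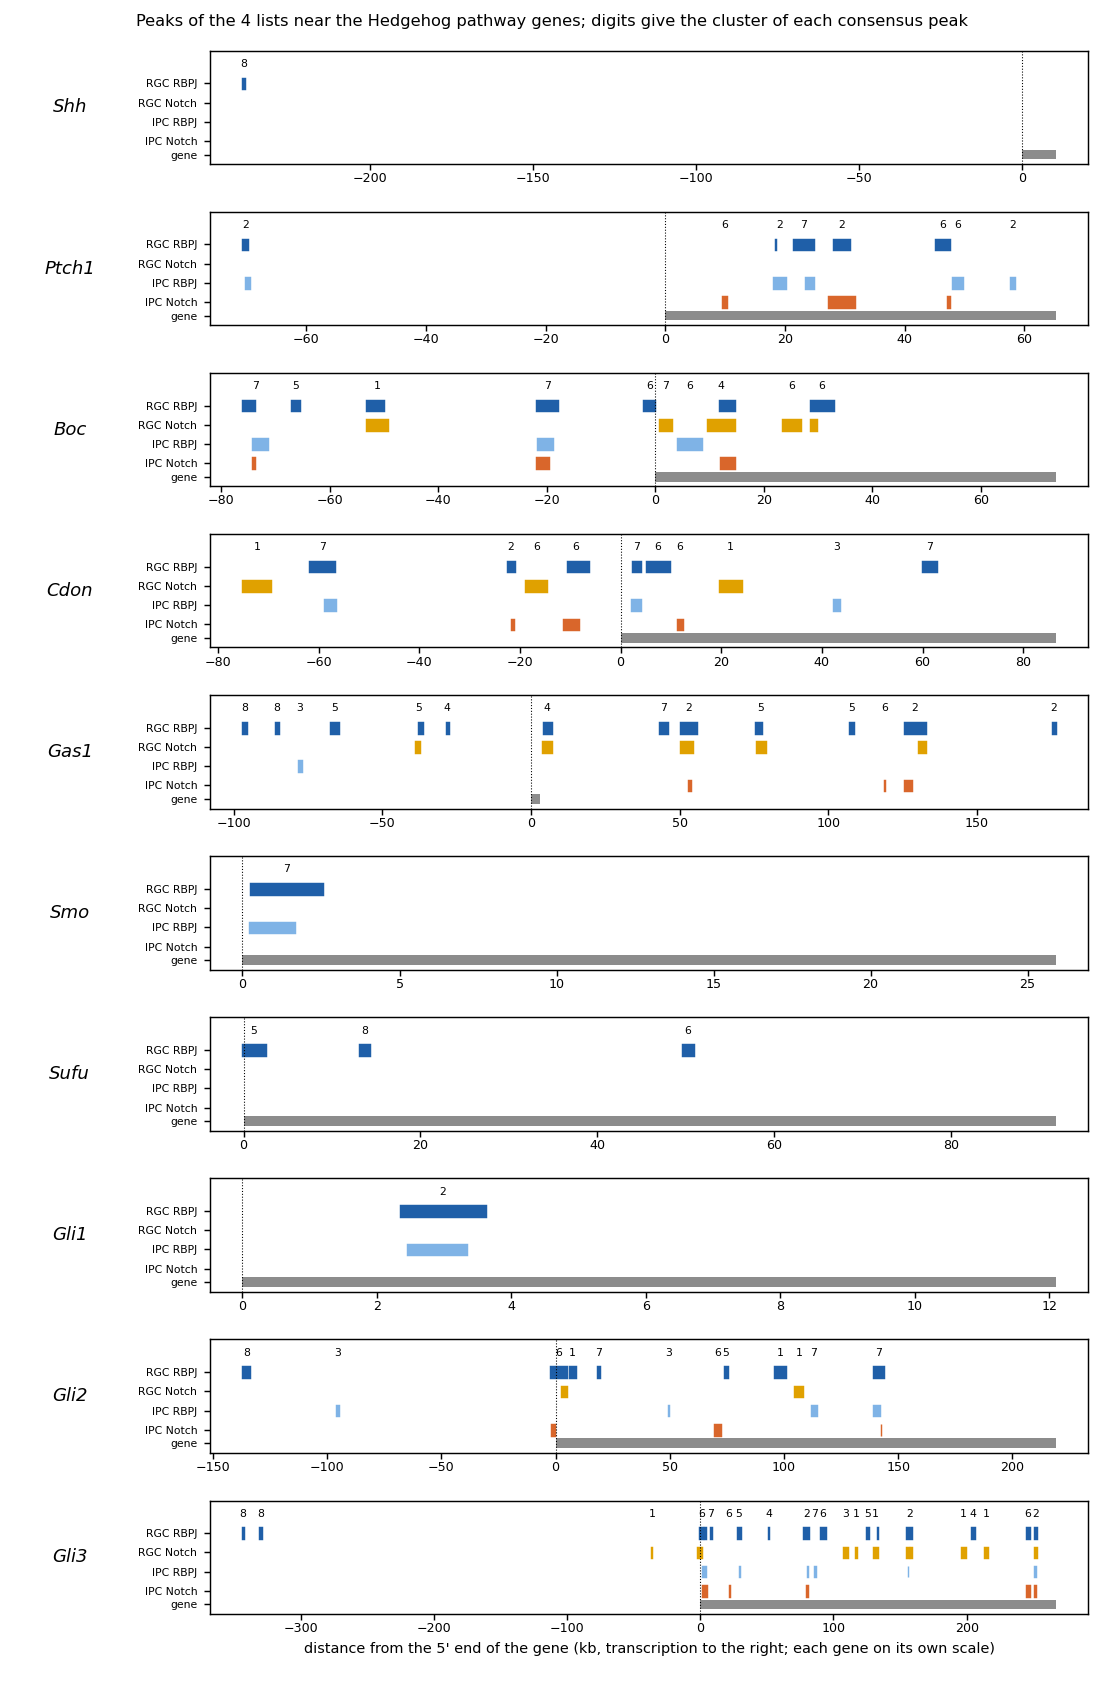
Peaks of the 4 lists around each of the 10 genes, by distance from the 5′ end of the gene in kb (transcription to the right, each gene on its own scale, grey bar: gene). The digits above the tracks give the cluster of each consensus peak, and the tracks of Shh, Ptch1, Smo, Sufu and Gli1 are empty for RGC Notch.

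A gene far from its neighbours can collect more peaks by its position alone, so each count was divided by the length of sequence lying nearer to that gene's start sites than to those of other protein-coding genes. The 10 genes together had 32.7 consensus peaks per Mb of such sequence (exact Poisson 95% interval 26.0 to 40.6), against 7.74 over all protein-coding genes. When noncoding genes could also own peaks and sequence, 39 peaks were left to the 10 genes, at 68.2 per Mb. No background rate was computed for that setting, so that 68.2 cannot be set against 7.74. Boc had 78.8 and Cdon 78.7 per Mb, and 2.53% and 2.54% of protein-coding genes were as dense or denser. Gli3, with the most peaks, had 30.4 per Mb over its 0.691 Mb, and Shh had 2.55 per Mb. Gli1 had 57.1, Ptch1 42.2, Gas1 35.9, Smo 33.2 and Sufu 31.2 per Mb, so that only Gli2, with 27.7, and Shh were less dense than Gli3. The rates of Gli1, Smo and Shh rest on 1 peak each.

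**Figure D2:**
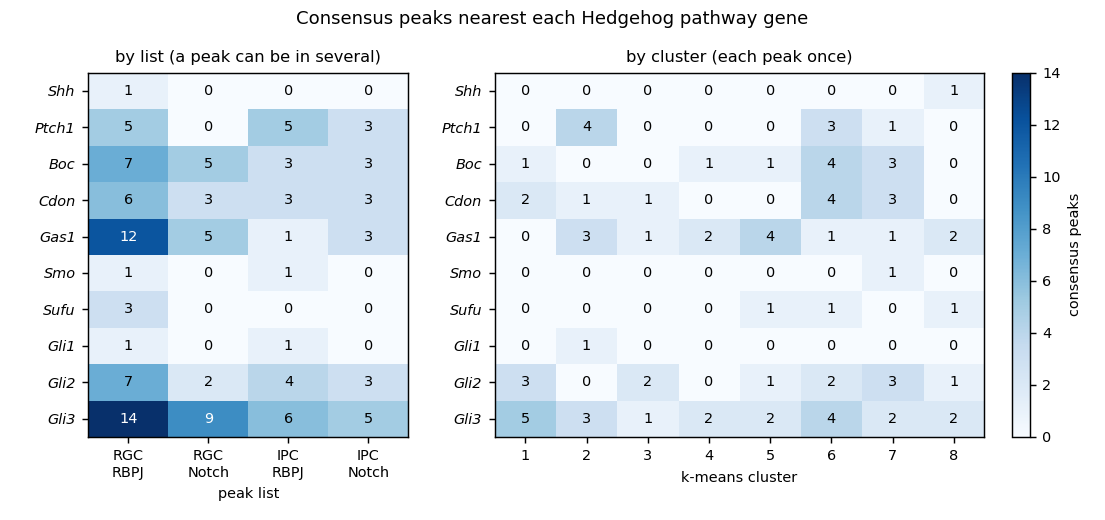
Number of consensus peaks nearest each gene, by list on the left (a peak can be in several lists) and by k-means cluster on the right (each peak counted once). Gli3 has the highest counts in all 4 lists, with 14 for RGC RBPJ, and the column of RGC Notch is 0 for 5 genes.

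Shh encodes the secreted ligand. Its gene (ENSMUSG00000002633, chr5:28456815-28467256, minus strand) has no peak within its body. The single peak, chr5:28705559-28706320, is an RGC RBPJ peak of 762 bp in cluster 8 that lies 238 kb upstream of the start site, and it holds 0 TTCCCA words.

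Ptch1 encodes the receptor and is itself a known Hedgehog target. The gene (ENSMUSG00000021466, chr13:63508328-63573598, minus strand) had 5 RGC RBPJ, 0 RGC Notch, 5 IPC RBPJ and 3 IPC Notch peaks among its 8 consensus peaks, and every one of the 8 was called in an IPC list. Calls in an IPC list were made at 46.3% of the 82 peaks and at 33.9% of all consensus peaks. It has 10 annotated start sites. Of the 8 peaks, 5 were called in both cell types, as were 11.5% of all consensus peaks. The peak chr13:63541821-63546368 (cluster 2) covers a start site inside the gene and contains an RGC RBPJ and an IPC Notch peak. The peak chr13:63563265-63564168 (cluster 6) covers another internal start site over 904 bp with 62.4% GC, the highest among the 82 peaks, and was called for Notch in IPCs only. Between them, in intron 2, lies the RBPJ peak of both cell types whose sequence is shown above, chr13:63548731-63552228 (cluster 7), with 10 TTCCCA words or 2.86 per kb. Near the 3′ end, the peak chr13:63515183-63515902 (cluster 2) overlaps an exon with UTR sequence 3.15 kb from a start site and was called for RBPJ in IPCs only. All 8 peaks of Ptch1 fell into clusters 2, 6 and 7, which held 4.76%, 10.8% and 11.0% of all consensus peaks.

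Boc, Cdon and Gas1 encode co-receptors, Boc and Cdon being related immunoglobulin and fibronectin domain proteins and Gas1 a lipid-anchored one. Their counts were similar (10, 11 and 14), but their layout was not. Boc (ENSMUSG00000022687, chr16:44485049-44558897, minus strand) had 7 RGC RBPJ, 5 RGC Notch, 3 IPC RBPJ and 3 IPC Notch peaks, 5 of the 10 consensus peaks inside the gene and 5 upstream. The peaks inside the gene all lay in intron 1. At its start site, an RGC RBPJ peak (chr16:44558923-44561146, cluster 6) ended 26 bp upstream, and an RGC Notch peak (chr16:44555824-44558190, cluster 7) began 707 bp downstream. An IPC RBPJ peak (chr16:44550262-44554877, cluster 6) followed 4.02 kb from the start site. These are 3 separate consensus peaks, each called in 1 list, as were 82.9% of all consensus peaks. Overlapping peaks were merged, so that separate consensus peaks share no base by construction.

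Of the Boc peaks, 3 were called in 3 lists. The intronic peak chr16:44544156-44549352 (cluster 4) was called for both proteins in RGCs and for Notch in IPCs, which shared 2753 bp. The upstream peaks chr16:44576915-44580835 and chr16:44630353-44635006, 18.0 and 71.5 kb from the start site and both in cluster 7, were called for RBPJ in both cell types and for Notch in IPCs. No 2 neighbouring Boc peaks were called in the same set of lists (0 of 9 pairs), although 4 of the 9 gaps between them were under 2 kb. Over all 10 genes, 10 of 72 neighbouring pairs had the same lists, or 13.9%, against 31.9% of the 12375 pairs of all protein-coding genes. RGC RBPJ alone was the call at 27 of the 82 peaks and at 52.1% of all consensus peaks, and its part in this share was not tested.

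Cdon (ENSMUSG00000038119, chr9:35421128-35507652, plus strand) had 6 RGC RBPJ, 3 RGC Notch, 3 IPC RBPJ and 3 IPC Notch peaks. None of its 3 RGC Notch peaks was called in another list. The same held for 11 of the 24 RGC Notch peaks of the 10 genes and for 1872 of 3688 over all consensus peaks. The peak chr9:35423142-35425261 (cluster 7) covers 1 of its 6 annotated start sites, 2.01 to 4.13 kb from the 5′ end, and was called for RBPJ in both cell types over 1839 shared bp. An RGC RBPJ peak, chr9:35426132-35430944 (cluster 6), lies 2.54 kb from a start site. As at Boc, neighbouring peaks never had the same lists (0 of 10 pairs), and the counts over the 8 clusters were alike, with 4 peaks in cluster 6 and 3 in cluster 7 at both genes (cosine 0.916 over the cluster counts). This is a description over 8 counts that rest on the same 4 lists.

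Gas1 (ENSMUSG00000052957, chr13:60174405-60177365, minus strand) is a gene of 2.96 kb and had no peak in its body or over a start site. Its 14 peaks lay 6 upstream and 8 downstream, over 274 kb. With 12 RGC RBPJ, 5 RGC Notch, 1 IPC RBPJ and 3 IPC Notch peaks, it was the co-receptor gene with the fewest calls for RBPJ in IPCs. The nearest peak, chr13:60170273-60173511 (cluster 4), lies 3.43 kb from a start site, downstream of the gene, and was called for both proteins in RGCs over 3165 shared bp. The peaks chr13:60044386-60051953 and chr13:60121456-60127304, both in cluster 2, lie 125 and 49.6 kb away and were called for both proteins in RGCs and for Notch in IPCs.

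Smo (ENSMUSG00000001761, chr6:29735503-29761365, plus strand) encodes the transducer held inactive by Ptch1. Its only peak, chr6:29735717-29738066 (cluster 7), starts 23 bp from an annotated start site, touches coding sequence and intron 1, and was called for RBPJ in both cell types over 1449 shared bp. Neither of its 2 TTCCCA words lies wholly in these shared bases. Neither Notch list had a peak there.

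Sufu (ENSMUSG00000025231, chr19:46396896-46488804, plus strand) encodes the cytoplasmic inhibitor of the Gli factors. Its 3 peaks were all RGC RBPJ peaks. The peak chr19:46396771-46399385 (cluster 5) covers 4 annotated start sites, and the others lie in introns 2 and 3, in clusters 8 and 6. Sufu and Shh were the 2 genes with calls for a single protein in a single cell type. They had only 3 peaks and 1 peak, and RGC RBPJ alone was the call at 52.1% of all consensus peaks.

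The 3 Gli factors differed in the number of their peaks. Gli1 (ENSMUSG00000025407, chr10:127329882-127341974, minus strand), whose expression is a usual readout of the pathway, had 1 peak. It is chr10:127338348-127339629 (cluster 2), 330 bp from an annotated internal start site and 2.35 kb from the 5′ end, and was called for RBPJ in both cell types over 896 shared bp. Gli1 has only 0.0175 Mb of sequence nearest to it, so that its rate of 57.1 per Mb has a wide counting error.

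Gli2 (ENSMUSG00000048402, chr1:118834132-119053619, minus strand) had 7 RGC RBPJ, 2 RGC Notch, 4 IPC RBPJ and 3 IPC Notch peaks, and 10 of the 12 consensus peaks lay in the gene. The peak chr1:119048768-119056057 (cluster 6) covers 2 start sites and holds 15 TTCCCA words, the most among the 82 peaks. An IPC Notch peak, chr1:118981338-118984223 (cluster 6), covers the third start site, and an RGC RBPJ peak, chr1:118978158-118979966 (cluster 5), lies 2.62 kb from it. Deep in intron 2, 68.0 kb from a start site, the peak chr1:118910053-118914542 (cluster 7) was called for RBPJ in both cell types and for Notch in IPCs. No RBPJ peak of IPCs lay within 5 kb of a start site of Gli2. Only 3 of its consensus peaks lay that near, and IPC RBPJ was called at 26.2% of all consensus peaks.

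Gli3 (ENSMUSG00000021318, chr13:15463235-15730026, plus strand) had 14 RGC RBPJ, 9 RGC Notch, 6 IPC RBPJ and 5 IPC Notch peaks in its 21 consensus peaks. Only 31 protein-coding genes, Gli3 among them, had as many or more. Of the 21, 18 lay in the gene, and 1 was within 5 kb of a start site. They were found in all 8 clusters, with 5 in cluster 1 and 4 in cluster 6. Of the 9 RGC Notch peaks, 5 were called in no other list, against 1872 of 3688 over all consensus peaks. The peaks chr13:15460566-15467920 (cluster 6), over 4 start sites, and chr13:15713539-15716102 (cluster 2), 250 kb from the start sites and over an exon between introns 11 and 12, were called in all 4 lists, as were 0.678% of all consensus peaks. The intronic peaks chr13:15540672-15544982 and chr13:15617950-15622574, 76.7 and 154 kb from the start sites and both in cluster 2, were called in 3 lists each. The first lacked RGC Notch and the second IPC Notch.

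A consensus peak called in several lists need not hold a place shared by them. Of the 30 peaks of the 10 genes called in more than 1 list, 26 had bases common to all the lists called, from 221 to 3328 bp with a median of 1230 bp, and 4, or 13.3%, had none. Of the 3555 consensus peaks called in more than 1 list, 51 or 1.43% had none. Peaks of 2 lists were merged because their list peaks met, so that a missing common base is mainly open to those of 3 or 4 lists. Peaks of 3 and of 4 lists numbered 9 and 2 of the 30, but 666 and 141 of the 3555, so that the shares without a common base are not like for like. The 4 were all called in 3 or 4 lists and include the start-site peaks of Gli2 and Gli3. Positions below are in kb from the 5′ end of the gene, negative upstream. At Gli3, the RGC Notch peak reached from -2.67 to 1.44, over all 4 start sites. The IPC Notch peak reached from 1.51 to 4.68 and the IPC RBPJ peak from 1.51 to 4.33, with a gap of 76 bp to the RGC Notch peak. The RGC RBPJ list had 2 peaks there, from -1.15 to 1.69 and from 2.99 to 4.33. The start sites of Gli3 were therefore covered in both RGC lists and in neither IPC list, although the consensus peak carries all 4 names.

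At Gli2, the IPC Notch peak lay upstream, from -1.85 to -0.138, and the RGC Notch peak lay inside the gene, from 2.51 to 4.85, which left 2650 bp between them. The RGC RBPJ peak ran across both, from -2.44 to 4.85. At the Gas1 peak 125 kb downstream, the RGC Notch and IPC Notch peaks were 1803 bp apart, again within a single RGC RBPJ peak. In the Gli2 peak of intron 2, an IPC Notch peak of 286 bp lay 105 bp from the IPC RBPJ peak. The Gli3 peak near the 3′ end was different, with 964 bp common to all 4 lists. Peak ends in TaDa can be no finer than the spacing of GATC sites, of which the Gli3 start-site peak holds 16 and that of Gli2 holds 18. Of the 82 peaks, 4 or 4.88% hold no GATC site, against 9.76% of all consensus peaks. They are 1 peak each of Ptch1 and Cdon and 2 of Gli2, all called for RBPJ in IPCs only.

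**Figure D3:**
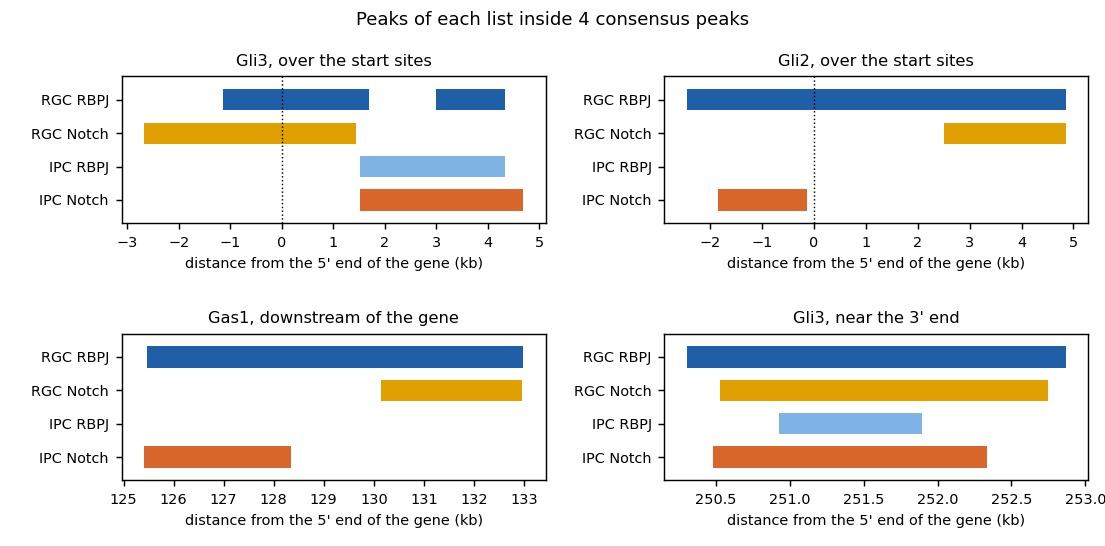
Peaks of each list inside 4 consensus peaks, by distance from the 5′ end of the gene in kb (dotted line: 5′ end, where it falls in the range). In the first 3 panels the RGC Notch and IPC Notch peaks do not meet, with gaps of 76, 2650 and 1803 bp, and in the last all 4 lists share 964 bp.

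Across the 82 peaks, 57 were called in the RGC RBPJ list, or 69.5% (interval 58.9 to 78.4), against 67.6% of all consensus peaks. In the IPC RBPJ list the share was 24 of 82, or 29.3% (20.5 to 39.9), against 26.2%. Both RBPJ shares were thus near the background. In the RGC Notch list it was also 24 of 82, or 29.3% (20.5 to 39.9), against 17.7%, and in the IPC Notch list 20 of 82, or 24.4% (16.4 to 34.7), against 10.1%. The background of both Notch lists lay below the intervals of these genes. For the 64 peaks within 100 kb of a start site, the RGC Notch share was 25.0% (16.0 to 36.8), an interval that held the background. For RGC Notch the direction also depended on which genes could own a peak. When noncoding genes were allowed to, 5 of 39 peaks were RGC Notch peaks, or 12.8% (5.60 to 26.7), below the background, whereas for IPC Notch it was 13 of 39, or 33.3% (20.6 to 49.0), still above it.

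Calls in both cell types compare lists whose labelled Dam-only samples differ. They were made at 24 of the 82 peaks, or 29.3% (20.5 to 39.9), against 11.5% of all consensus peaks. Of the 24 IPC RBPJ peaks, 15 were also RGC RBPJ peaks, which is 62.5% of the former and 26.3% of the latter, against 26.1% and 10.1% over all consensus peaks. Of the 20 IPC Notch peaks, 6 were also RGC Notch peaks, or 30.0% of the former and 25.0% of the latter, against 23.5% and 13.4%. IPC Notch peaks coincided with peaks of the much larger RGC RBPJ list at 15 of 20 or 75.0%, against 53.7% over all consensus peaks, and these made up 26.3% of the RGC RBPJ peaks, against 8.02%. Calls in more than 1 list, which include the pairs of lists of a single cell type, were made at 36.6% (27.0 to 47.4) against 17.1%.

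**Figure D4:**
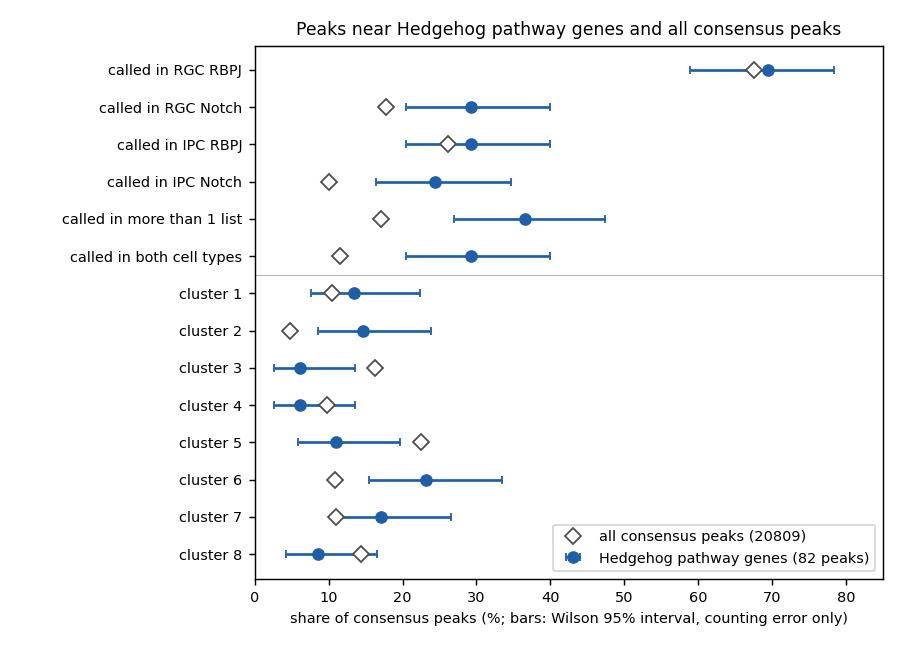
Share of consensus peaks called in each list, in more than 1 list, in both cell types and in each cluster, for the 82 peaks near the Hedgehog pathway genes (circles, with Wilson 95% intervals) and for all 20809 consensus peaks (diamonds). The RBPJ lists lie near the diamonds, and both Notch lists, calls in more than 1 list or in both cell types, cluster 2 and cluster 6 lie above them.

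The width of the peaks moved with these shares. A consensus peak is a union of list peaks, so that calls in several lists also widen it. The 82 peaks had a median width of 2649 bp, against 1890 bp over all consensus peaks, and the median width rose with the number of lists in both sets, from 1931 to 4960 bp here and from 1717 to 4335 bp over all. Among peaks of at least 4000 bp, 12 of 21 were called in both cell types, or 57.1%, against 33.7% of all consensus peaks of that width. From 2000 to under 4000 bp it was 9 of 32, or 28.1%, against 15.3%, and from 1000 to under 2000 bp 3 of 19, or 15.8%, against 5.60%. None of the 10 narrower peaks was called in both, against 1.72%. The RGC Notch share was 5.26% of the 19 peaks from 1000 to under 2000 bp, below the 11.0% of all consensus peaks of that width, and rests on few calls. It was above them from 2000 to under 4000 bp, at 31.2% against 21.6%, and from 4000 bp, at 57.1% against 39.9%. In the narrowest peaks the shares were nearly equal. Genes with many peaks also differed from the rest, since 16.4% of the 4020 consensus peaks of genes with at least 10 peaks were called in both cell types. Width and the number of lists cannot be told apart here, and the part of the number of peaks per gene was not tested.

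**Figure D5:**
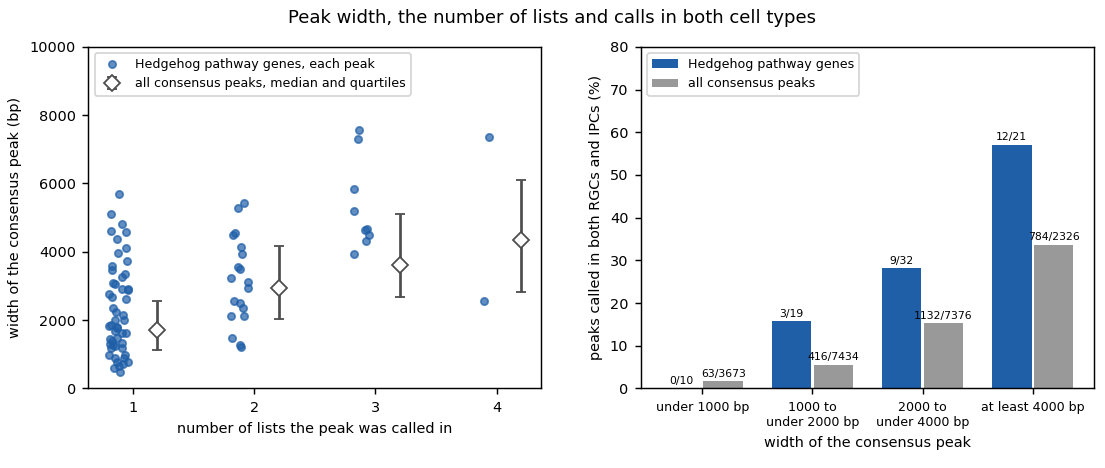
Left, width of each of the 82 consensus peaks in bp by the number of lists it was called in (points), beside the median and quartiles of all consensus peaks (diamonds and bars). Right, share of peaks called in both cell types by width, with the counts above the bars. The share rises with width in both sets, to 12 of 21 and 784 of 2326 for peaks of at least 4000 bp.

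The clusters group consensus peaks by average TaDa intensity. Clusters 2, 6 and 7 stand for both proteins in both cell types, cluster 4 for both proteins in RGCs, cluster 1 for Notch in RGCs, clusters 5 and 8 for RBPJ in RGCs and cluster 3 for RBPJ in IPCs. Of the 82 peaks, 50 were in clusters 2, 4, 6 and 7, or 61.0% (50.2 to 70.8), against 36.3% of all consensus peaks. Cluster 6 held 19, or 23.2% (against 10.8%), cluster 7 held 14, or 17.1% (11.0%), cluster 2 held 12, or 14.6% (4.76%), and cluster 4 held 5, or 6.10% (9.79%). The intervals of clusters 2 (8.57 to 23.9) and 6 (15.4 to 33.4) lay above their backgrounds, and those of clusters 4 and 7 held theirs (for cluster 7, 10.5 to 26.6).

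Among the clusters of a single protein, cluster 1 held 11 of the 82 peaks, or 13.4% (against 10.5%), and cluster 3 held 5, or 6.10% (16.3%). Cluster 5 held 9, or 11.0% (22.5%), and cluster 8 held 7, or 8.54% (14.4%). Cluster and list do not say the same thing of a peak. Of the 19 cluster 6 peaks, 10 were called for RBPJ in RGCs, 5 for Notch in RGCs, 3 for RBPJ in IPCs and 10 for Notch in IPCs, and 6, or 31.6%, had both a Notch and an RBPJ call. These are shares of 52.6%, 26.3%, 15.8% and 52.6% in the 4 lists, and over all consensus peaks of cluster 6 they were 64.2%, 19.7%, 11.0% and 48.3%, with 27.8% holding both calls, so that the 19 peaks were near the background of their cluster. At Gli3, the peak chr13:15570359-15574093 is in cluster 3 but was called for Notch in RGCs only.

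By gene, cluster 6 held 4 peaks each of Boc, Cdon and Gli3, 3 of Ptch1, 2 of Gli2 and 1 each of Gas1 and Sufu. Gas1 had its highest count, 4, in cluster 5, and Ptch1 had its 4 in cluster 2. Among the 276 protein-coding genes with at least 10 peaks, the genes with cluster counts most like those of Gli3 were Epha4 (cosine 0.964), Celf2 (0.919) and Sox9 (0.917). For Boc they were Lrrn3 (0.964), Matn1 and Nfe2l3 (both 0.946). For Cdon they were Gfra1 (0.920), Chd2 (0.917) and Boc, and for Gas1 Klf12 (0.928), Nr2f1 (0.921) and Grik1 (0.918). Gas1 was the least like the other co-receptors, with a cosine of 0.409 to Boc and 0.329 to Cdon.

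The peaks of these genes lay mostly away from start sites. Of the 82, 7 covered a start site, or 8.54% against 16.6% of all consensus peaks, and 17 lay within 5 kb of one, or 20.7% against 31.1%. The others by position were 33 in introns, 11 over exons, 23 upstream and 8 downstream, the last all at Gas1. The start-site peaks belong to Ptch1, Cdon, Sufu, Gli2 and Gli3, with 2 each at Ptch1 and Gli2. RefSeq promoter windows, from 250 bases before to 50 after a start, were found for 7 of the 10 genes, and those of Gli2, Gli3 and Sufu overlapped a peak. The share of all promoter windows that overlap a peak was not counted, so that this count has no background here. TTCCCA occurred in 1 of the 7 windows, that of Cdon, which lay under no peak, and in 25.6% of all 32851 such windows.

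TTCCCA occurred 291 times under the 82 peaks. This is 1.22 per kb (exact Poisson 95% interval 1.09 to 1.37), against 1.17 per kb under all consensus peaks. At least 1 word was held by 90.2% of the 82, against 82.9%, and the Wilson interval of this share held the background. The 82 peaks were also wider (median 2649 against 1890 bp), and the part of width in this share was not tested. Gli2 and Gli3 had nearly the same number of words in peaks of different total length, with 60 words or 1.57 per kb at Gli2 and 61 words or 1.03 per kb at Gli3. The median GC content was 50.5% over the Gli2 peaks and 42.5% over those of Gli3, and the part of GC content in the word density was not tested. The density was 1.55 at Ptch1, 1.20 at Boc, 1.19 at Cdon and 1.18 at Gas1.

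The GLI consensus word GACCACCCA was searched in the same way, on both strands, where it can also appear as TGGGTGGTC. It was found in 2 of the 82 peaks, at 0.00841 per kb (0.00102 to 0.0304), against 0.00847 under all consensus peaks, so that no excess was detectable at these counts. Both matches are shown with 60 bases around them, the word in capitals, on the forward strand. A 60-base window under all consensus peaks holds the word in 0.0442% of cases.
Boc, chr16:44552131-44552190: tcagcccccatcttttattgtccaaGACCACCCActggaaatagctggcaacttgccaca
Gli2, chr1:119046521-119046580: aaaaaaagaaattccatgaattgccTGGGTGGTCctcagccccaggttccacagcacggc
The Boc match lies in intron 1, in the IPC RBPJ peak 4.02 kb from the start site. The Gli2 match lies in intron 1, in an RGC RBPJ peak 5.43 kb from a start site, chr1:119044843-119047906 (cluster 1), and was chosen after the words were counted. Among consensus peaks within 10% of their width, 3.91% held the word in the case of Boc and 2.21% in that of Gli2.

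Of 35 further genes of the pathway, 21 had a consensus peak, or 60.0% against 39.7% of all protein-coding genes. They had 72 peaks in all and 13.4 per Mb, against 7.74 over all protein-coding genes. By role, 3 of 7 genes of ligands and their release had a peak, 3 of 4 membrane inhibitors and receptors, 9 of 16 transduction genes and 6 of 8 targets. The targets held 43 of the 72 peaks, with 18 at Mycn, a proliferation factor, and 9 at Nkx6-1 and 7 at Olig2, both ventral patterning factors. Ccnd2, a cyclin, and Hhip, a membrane inhibitor that binds the ligand, had 5 each. Mycn alone among these 5 was called in each of the 4 lists at 4 or more peaks (10 RGC RBPJ, 4 RGC Notch, 6 IPC RBPJ and 4 IPC Notch). RGC RBPJ peaks lay near 19 of the 35 genes, RGC Notch and IPC RBPJ peaks near 8 each and IPC Notch peaks near 4. Of all protein-coding genes, 31.7% were nearest to an RGC RBPJ peak, 11.7% to an RGC Notch peak, 16.4% to an IPC RBPJ peak and 6.98% to an IPC Notch peak.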

How the data were processed

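TaDa of RBPJ and Notch in 14 fusion samples lies behind the lists used here, with 9 Dam-only samples of the same cell types. Which of the 9 entered each peak call is not given in the sources used here. The other 16 of the 39 samples were not used. Reads were mapped to mm10 by the authors, who ran Macs2 in broad mode on each fusion sample against each Dam-only sample and deposited the peaks that passed an FDR limit in all such pairs. The deposited values are peak positions and a k-means cluster number. There are 0 columns of single samples and no height, fold, signal or p-value, so sequencing depth is unknown.

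The members and gene lists were chosen with earlier results of these data known. Each peak went to the protein-coding gene whose start site (GENCODE annotation of GRCm38) lay closest to its nearest edge. Overlap was counted from 1 bp, and the list names in the deposited cluster file matched those recomputed at all 20809 nuclear peaks. Words were counted on both strands of the RefSeq GRCm38 sequence. Peaks named in full lie within 5 kb of a start site or were called in 3 or 4 lists. The peak of Shh, the cluster 3 peak of Gli3 and the Gli2 peak with the GLI word were named outside this rule, after their values were seen. Genes alike in cluster counts were the 3 nearest by cosine among those with at least 10 peaks. Those of Gli2 are not reported here. Of the 35 further pathway genes, those with the most peaks are named. Intervals for shares are Wilson, and for rates exact Poisson. The alternatives tried were other distances, start sites and gene sets, a 1000 bp minimum width, a 50% overlap, other words and the central 500 bp. Procedures were tested on simulated data. Python 3.11.15, numpy 2.4.6, scipy 1.17.1, samtools 1.23.1 and matplotlib 3.10.9 were used.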

Additional observations from a re-analysis of the deposited data

How the results depend on the processing

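Of 127 values recomputed under alternatives, 115 stayed close to those reported. Counts were called close within 1.5 times, and shares and rates within their interval. When noncoding genes could also own a peak, the 82 peaks fell to 39, those in the RGC RBPJ, RGC Notch, IPC RBPJ and IPC Notch lists to 28, 5, 15 and 13, the share in clusters 2, 4, 6 and 7 rose to 74.4% and the rate to 68.2 peaks per Mb, since those genes take peaks and sequence from the 10. Counting only peaks in the gene body or 5 kb upstream left 34 RGC RBPJ peaks and 13 IPC Notch peaks. The density of TTCCCA was 1.07 per kb in the central 500 bp, against 1.18 over all consensus peaks, so that its order with the background turned. The longer word TTCCCAC gave 0.307 per kb against 0.270, and the shorter GLI word CCACCCA gave 0.273 against 0.259. Leaving out 1 gene at a time, an alternative chosen after seeing the data, kept the share in more than 1 list between 33.8% and 40.0% and the rate between 30.0 and 38.3 per Mb. The RGC Notch share fell to 12.8% with noncoding genes, so that its order with the background of 17.7% turned. Under the other alternatives for choosing peaks it lay between 25.0% and 31.9%, above the background. For peaks within 100 kb of a start site, however, the interval of 16.0 to 36.8 held the background, so that the excess was not kept there. No paired analysis was possible because the lists keep only peaks found in all pairs of a condition and hold no value per sample, and for the same reason no replicate could be left out. Values per sample were not used here, so that the strength of binding at a peak and its spread between samples are outside what these counts can show.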
